A study of Mus musculus with 24 samples.

Results

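The genes of glycolysis and pyruvate metabolism described here were taken from a list of 37 gene symbols, and a gene was included when its symbol stood in the identifier column of the deposited table. This held for 34 of the 37, out of 13998 genes in the table. *Gapdh*, *Eno1* and *Pkm2* were listed as well and were not analysed here, whereas *Pkm*, the gene symbol of muscle pyruvate kinase, was present. The 34 genes fell into 11 roles, from glucose uptake to the pentose phosphate pathway, and lay on 15 chromosomes. None of the 34 lay on Chr 17 (0 genes), so both genotypes carried the same *b6/b6* alleles at each of them.

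Expression was measured by SAGE-Seq in the hypothalamus of 24 male F_2_ mice, 12 *cast/cast* and 12 *b6/b6*, with 1 library per mouse. The mice were non-recombinant, that is homozygous for either the CAST/EiJ (*cast/cast*) or the C57BL/6J (*b6/b6*) haplotype along the whole subcongenic segment of proximal Chr 17, and *b6/b6* elsewhere in the genome. They were singly housed adults that chose between a carbohydrate/protein (C/P) and a fat/protein (F/P) diet for 10 d, the fat source of the latter varying among mice, and were later returned to both diets for about 48 h and fasted before the hypothalamus was taken. The authors chose *cast/cast* mice from the high end and *b6/b6* mice from the low end of C/P intake, so that genotype and intake cannot be told apart, and P-values describe the chosen mice. C/P intake over 10 d ranged from 77.8 to 106.6 kcal in *cast/cast* and from 27.4 to 41.0 kcal in *b6/b6* mice, with medians of 83.15 and 36.0 kcal.

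Glycolysis splits glucose into pyruvate in the cytosol, and the committed step is taken by phosphofructokinase. Pyruvate is then either reduced to lactate, which cells exchange through monocarboxylate transporters, or carried into mitochondria, where the pyruvate dehydrogenase complex turns it into acetyl-CoA. In brain, glucose is the main fuel, glycolysis and lactate release are prominent in astrocytes, and neurons and glia of the hypothalamus respond to changes in glucose supply.

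SAGE-Seq counts 1 short tag from near the 3′ end of each transcript, so that by design a count does not grow with transcript length. How well each tag is recovered was not tested, and levels of different genes are given as tags per gene only. Values are normalized counts, which are tag hits divided by the size factor of the library. Total tag hits ranged from 7754202 to 13082873 per mouse, the *cast/cast* median being 10383038 and the *b6/b6* median 10032338.5. The 34 genes together took a median of 0.969% of the normalized counts in *cast/cast* mice (0.828 to 1.53%) and of 1.15% in *b6/b6* mice (0.829 to 1.33%).

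Some libraries stood apart from the rest of their genotype before any of the 34 genes was considered. In a principal component analysis of 7456 other genes off Chr 17, run on deviations from the mean of each genotype, the first component held 42% of the variance and the second 19%. On the first component *cast/cast* mice 4, 5, 6 and 8 scored 34.4 to 66.9, whereas the other 8 *cast/cast* mice scored -29.3 to -18.8. Among *b6/b6* mice, 1, 2, 4, 5, 8 and 10 scored 10.4 to 45.9 on it and the remaining mice were below 0. On the second component *b6/b6* mice 6 and 12 scored -50.9 and -66.3, against -0.4 to 19.3 in the other *b6/b6* mice. A correlation above 0.5 with the first component was seen for 10 of the 34 genes, beside 23.3% of all genes. One below -0.5 was seen for 7 of the 34, beside 25.4% of all genes. Splits along this component, given below gene by gene, were thus common over all genes as well. The labels name no library batch or dissection, and what sets these libraries apart was not tested. Fold changes without the 4 *cast/cast* or the 2 *b6/b6* mice are given for many of the genes in which these were far from the rest, and no fit left out the *b6/b6* mice with high scores on the first component.

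By level, the 34 genes spanned a wide range. The median of the 34 mean levels was 769.3 normalized counts against 150.6 over all genes, 29 of the 34 were above that median of all genes, 15 were at 1000 or more and 5 were below 100. The most abundant was *Tpi1*, the triose phosphate isomerase, with a mean of 23824 normalized counts, followed by *Pgk1* (phosphoglycerate kinase) with 15115, *Ldha* (the lactate dehydrogenase subunit that favours lactate formation) with 14685 and *Eno2* (the neuronal enolase) with 11414. Phosphoglucose isomerase *Gpi1* stood at 6672, aldolase *Aldoa* at 6616 and the phosphoglycerate mutase *Pgam1* at 5072 normalized counts. The mitochondrial *Pdha1* had 3976, more than *Pfkp* (3416), *Pkm* (2290), *Pfkl* (1954) or *Hk1* (931.5). At the other end were *Pdk3*, a kinase that inactivates pyruvate dehydrogenase, with 33.5, *G6pdx*, the entry enzyme of the pentose phosphate pathway, with 50.1, *Slc16a7*, a monocarboxylate transporter of neurons, with 54.4, *Mpc2*, 1 of the subunits of the mitochondrial pyruvate carrier, with 54.6 and *Pgd*, the phosphogluconate dehydrogenase that yields NADPH, with 78.6.

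Between the genotypes, none of the 34 genes was called by limma. A gene was called when its unadjusted *P* did not exceed 0.01 and the means differed 1.5-fold or more. Limma called 0 of 34, where 208 of 13998 genes (1.49%) were called, 66 higher and 142 lower in *cast/cast*. With unadjusted *P* up to 0.05 the count was again 0 of 34, against 1138 genes (8.13%). EdgeR called 1 of the 34 (2.79% of all genes) and had 2 at *P* of at most 0.05 (11.6%). DESeq2 called 0 (2.82%) and had 1 (12.1%). The log2 fold change, *cast/cast* minus *b6/b6* on the log2(normalized count + 1) scale, was above 0 in 12 genes and below 0 in 22, with a median of -0.11 beside -0.02 over all genes. For 16 of the 34 genes the 95% interval lay within 1.5-fold either way, beside 5076 of 13998 genes (36.3%), so that a larger difference was not seen in these, whereas the remaining intervals were too wide to say so. The 16 included *Slc2a1*, *Hk1*, *Pfkl*, *Pfkp*, *Pgk1*, *Eno2*, *Pkm*, *Pdha1* and *Pdk1*. Because the hypothalamus was sampled in bulk, fewer cells of a type and less RNA per cell cannot be told apart in any of these values.

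**Figure D1:**
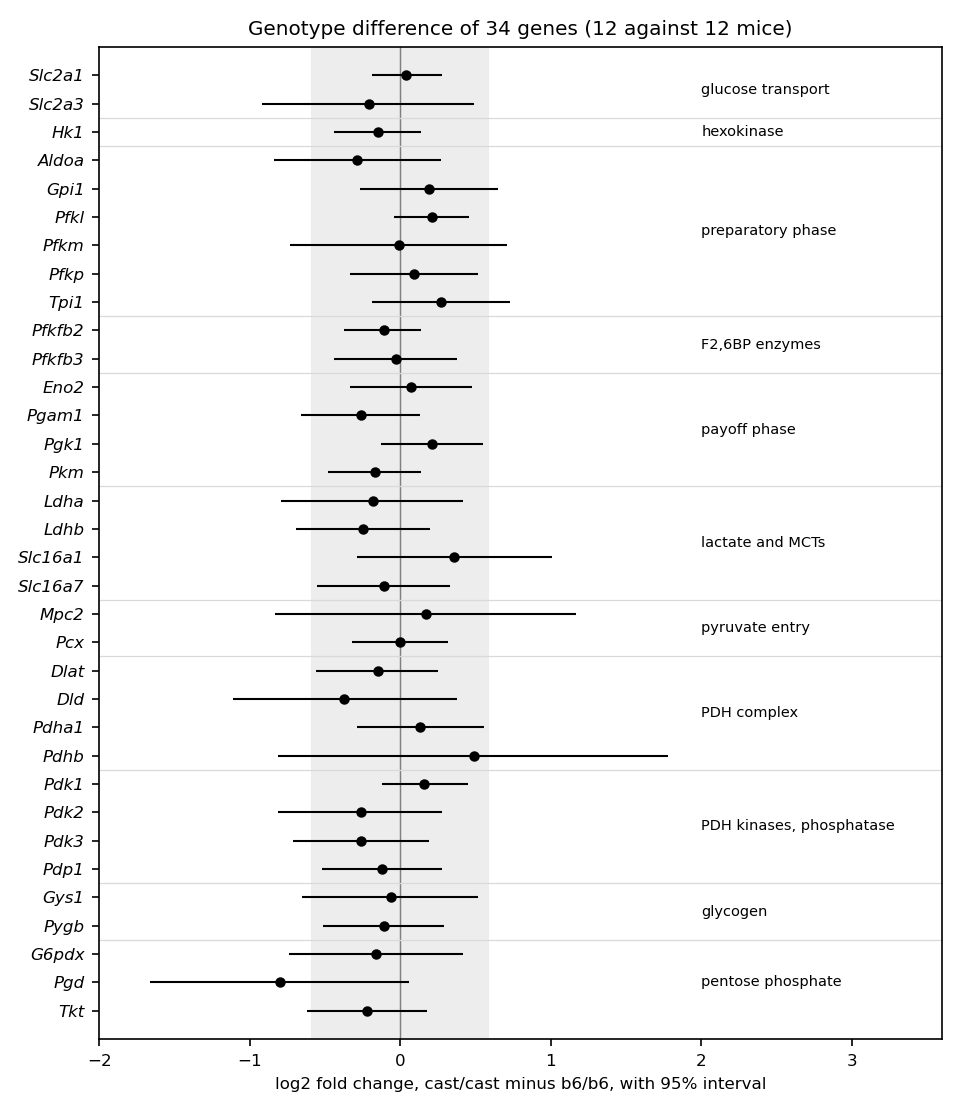
Log2 fold change of each of the 34 genes (x axis, *cast/cast* minus *b6/b6* on the log2(normalized count + 1) scale) by role, with points for the limma estimate over 12 against 12 mice, lines for its 95% interval and a grey band for 1.5-fold either way. Each interval includes 0, the lowest estimate being -0.80 for *Pgd* and the highest 0.49 for *Pdhb*. PDH, pyruvate dehydrogenase; MCTs, monocarboxylate transporters; F2,6BP, the enzymes that make and break fructose 2,6-bisphosphate.

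The result depended on the libraries that stood apart. Without *cast/cast* mice 4, 5, 6 and 8, limma called 2 of the 34, *Mpc2* and *Pdhb*, both higher in *cast/cast*, where 819 genes (5.85%) were called in all, 456 of them higher. Without *b6/b6* mice 6 and 12 the count was 0 of 34, where 138 genes (0.986%) were called. Without these 6 mice it was 3, *Mpc2*, *Pdhb* and *Ldha*, where 937 genes (6.69%) were called. The 6 *b6/b6* libraries with high scores on the first component stayed in each time, so that a difference between genotypes and the removal from *cast/cast* alone cannot be told apart in these counts.

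Glucose enters brain cells mainly through *Slc2a1* (GLUT1), carried by endothelium and astrocytes, and *Slc2a3* (GLUT3), the neuronal transporter. The lowest, median and highest *Slc2a1* values were 498.5, 661.6 and 984.2 normalized counts in *cast/cast* and 517.0, 646.0 and 798.3 in *b6/b6* mice. The ranges overlapped almost entirely, and the log2 fold change was 0.04 (95% interval -0.19 to 0.28), below 0 when libraries were rescaled to the same total (-0.05). *Slc2a3* ran from 43.7 through 209.1 to 329.7 in *cast/cast* and from 77.2 through 198.1 to 476.4 in *b6/b6* mice. The 4 lowest *cast/cast* values, 43.7 to 122.9, belonged to mice 4, 5, 6 and 8, and the 2 highest *b6/b6* values, 370.0 and 476.4, to mice 6 and 12. Its log2 fold change of -0.21 (-0.92 to 0.49) became 0.37 without the 4 *cast/cast* mice.

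*Hk1*, the main hexokinase of brain, which traps glucose by phosphorylation, was at 628.6, 905.4 and 1196 normalized counts (lowest, median, highest) in *cast/cast* and at 540.3, 975.4 and 1414 in *b6/b6* mice. The *b6/b6* range enclosed that of *cast/cast*, with a log2 fold change of -0.15 (-0.44 to 0.14). *Gpi1*, which makes fructose 6-phosphate, ran from 3130 through 5366 to 13832 in *cast/cast* and from 3956 through 5877 to 10346 in *b6/b6* mice. The 4 highest *cast/cast* values, 11179 to 13832, were those of mice 4, 5, 6 and 8, and the other 8 mice lay between 3130 and 7145. The log2 fold change was 0.19 (-0.27 to 0.65) in all mice and -0.26 without those 4.

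Of the phosphofructokinase isozymes, which set the pace of the pathway, the muscle type *Pfkm* was the most abundant. *Pfkm* stood at 715.2, 6591 and 12117 normalized counts in *cast/cast* and at 1438, 6444 and 8393 in *b6/b6* mice. A single mouse of each genotype was far below the others, *cast/cast* mouse 9 and *b6/b6* mouse 2, and the log2 fold change was -0.01 (-0.73 to 0.71), with -0.48 to 0.12 over the alternatives. *Cast/cast* mice 4, 5 and 8 had the 3 highest *Pfkm* values. The liver type *Pfkl* ran from 1537 through 2042 to 2762 in *cast/cast* and from 1240 through 1874 to 2462 in *b6/b6* mice, a log2 fold change of 0.21 (-0.04 to 0.46) with overlapping ranges. The platelet type *Pfkp* ran from 2243 through 2913 to 6152 and from 1811 through 3166 to 5336. It was 4823 to 6152 in *cast/cast* mice 4, 5, 6 and 8 and at most 3169 in the other 8, while *b6/b6* mice 6 and 12 had the lowest *b6/b6* values. Its log2 fold change was 0.09 (-0.33 to 0.52) in all mice and -0.26 without the 4 *cast/cast* mice.

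*Pfkfb2* and *Pfkfb3* make fructose 2,6-bisphosphate, the activator of phosphofructokinase. *Pfkfb3* was at 103.8, 169.4 and 446.3 normalized counts in *cast/cast* and at 119.6, 178.0 and 384.8 in *b6/b6* mice. The groups overlapped, mice 4, 5, 6 and 8 holding the 4 highest *cast/cast* values, and the log2 fold change was -0.03 (-0.44 to 0.38). It ran from -0.43 to 0.01 over the alternatives for *Pfkfb3*. *Pfkfb2* varied little, from 167.4 to 287.7 in *cast/cast* and from 179.2 to 365.1 in *b6/b6* mice.

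Farther down, *Aldoa* cleaves fructose 1,6-bisphosphate and *Tpi1* interconverts the resulting trioses. *Aldoa* stood at 1796, 5931 and 9548 normalized counts in *cast/cast* and at 3771, 6170 and 15165 in *b6/b6* mice. Its highest values were the 12995 and 15165 of *b6/b6* mice 6 and 12, beside at most 8243 in other *b6/b6* mice, and the log2 fold change of -0.29 (-0.84 to 0.27) became 0.04 without *cast/cast* mice 4, 5, 6 and 8. *Tpi1* ran from 15862 through 19699 to 51460 in *cast/cast* and from 10910 through 20417 to 36210 in *b6/b6* mice. Here too *cast/cast* mice 4, 5, 6 and 8 were on top, at 27979 to 51460 against 15862 to 20276 in the other 8, and *b6/b6* mice 6 and 12 were at the bottom of their group. Between genotypes the log2 fold change of *Tpi1* was 0.27 (-0.19 to 0.73), and -0.12 without those 4 *cast/cast* mice.

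In the payoff phase, which yields ATP, *Pkm* carries out the last step. *Pkm* was at 1545, 2181 and 2455 normalized counts in *cast/cast* and at 1744, 2117 and 5086 in *b6/b6* mice. Outside *b6/b6* mice 6 and 12, which had 4082 and 5086, no mouse exceeded 2455, and the log2 fold change was -0.17 (-0.48 to 0.14) with and 0.02 without these 2 mice. For *Pgk1* the fold change was 0.21, for *Pgam1* -0.26 and for *Eno2* 0.07 on the log2 scale. *Eno2* was 15526 to 19336 in *cast/cast* mice 4, 5, 6 and 8 and 8112 to 10384 in the other 8, and its log2 fold change was -0.25 without those 4.

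Lactate dehydrogenase tetramers are built from *Ldha* and *Ldhb* subunits, the latter favouring use of lactate. *Ldha* spanned 3185, 11899 and 33605 normalized counts in *cast/cast* and 7264, 14679 and 25989 in *b6/b6* mice. The lowest mouse of all was *cast/cast* mouse 7 and the highest *cast/cast* mouse 6, so the *cast/cast* range enclosed that of *b6/b6*, and the log2 fold change was -0.18 (-0.79 to 0.42). *Ldha* was called, with a log2 fold change of -0.76, only without all 6 mice that stood apart (*P* = 0.00819). *Ldhb* spanned 774.8, 2690 and 3695 in *cast/cast* and 1593, 3175 and 4493 in *b6/b6* mice. *Cast/cast* mouse 11 lay below every other mouse, and *b6/b6* mice 6 and 12 above every other, with a log2 fold change of -0.25 (-0.69 to 0.20), which was -0.13 without these 2 for *Ldhb*.

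*Slc16a1* (MCT1) moves lactate and ketone bodies across the membranes of glia and endothelium. It was at 164.0, 833.2 and 1389 normalized counts in *cast/cast* and at 262.1, 723.2 and 1444 in *b6/b6* mice. *Cast/cast* mouse 11, the lowest for *Ldhb* as well, had the 164.0, and *b6/b6* mice 3, 6, 7 and 12 lay between 262.1 and 270.8, well under the next *b6/b6* mouse at 553.9. This gave *Slc16a1* a log2 fold change of 0.36 (-0.29 to 1.01), with 0.04 to 0.51 over the alternatives and 0.13 without *b6/b6* mice 6 and 12. *Slc16a7* ranged from 24.1 to 68.8 in *cast/cast* and from 22.8 to 118.8 in *b6/b6* mice.

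Pyruvate enters mitochondria through a carrier made of *Mpc1* and *Mpc2*, and *Pcx* carboxylates it to oxaloacetate. *Mpc2* was at 3.64, 71.6 and 111.3 normalized counts in *cast/cast* and at 12.6, 49.8 and 74.0 in *b6/b6* mice. *Cast/cast* mice 4, 5, 6 and 8 had 3.64 to 38.1 and the other 8 had 56.0 to 111.3, and the lowest value of 3.64 rested on 4 tag hits. Among *b6/b6* mice, 1, 2, 4, 5, 8 and 10 had *Mpc2* values of 12.6 to 54.0 and the others 45.6 to 74.0. The log2 fold change was 0.17 (-0.83 to 1.17) in all mice and 1.13 without the 4 *cast/cast* mice, a removal from 1 genotype only. *Pcx* ranged from 105.9 to 204.5 and from 107.9 to 273.0, with a log2 fold change of 0.00.

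The pyruvate dehydrogenase complex consists of E1 (*Pdha1* and *Pdhb*), E2 (*Dlat*) and E3 (*Dld*, shared with other 2-oxo acid dehydrogenases). *Pdha1* ran from 2496 through 3231 to 7870 normalized counts in *cast/cast* and from 2437 through 3543 to 5803 in *b6/b6* mice. Its 4 highest *cast/cast* values, 5624 to 7870, were those of mice 4, 5, 6 and 8, and the log2 fold change of 0.13 (-0.29 to 0.56) became -0.26 without them. *Pdhb* showed the opposite order among mice. It ran from 9.50 through 236.6 to 349.3 in *cast/cast*, where mice 4, 5, 6 and 8 had 9.5 to 42.9 and the other 8 had 227.1 to 349.3, and from 9.44 through 78.8 to 302.0 in *b6/b6* mice. A split was present there too, with 9.44 to 81.4 in mice 1, 2, 4, 5, 8 and 10, 98.1 and 76.1 in mice 6 and 12, and 223.1 to 302.0 in mice 3, 7, 9 and 11. For *Pdhb* the log2 fold change was 0.49 (-0.81 to 1.78) in all mice and 1.71 without the 4 *cast/cast* mice, while the low *b6/b6* mice stayed in. *Dlat* went with *Pdha1*, at 585.3 to 789.3 in the same 4 mice and 279.7 to 366.8 in the other 8, and its log2 fold change of -0.15 became -0.49 without those 4. *Dld* reached 983.0 and 1421 in *b6/b6* mice 6 and 12 and was 60.5 to 247.0 in the other 22 mice, so that its log2 fold change was -0.37 with and 0.13 without these 2.

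Pyruvate dehydrogenase kinases switch the complex off and *Pdp1*, a phosphatase, switches it on again. *Pdk1* was at 761.9, 1155 and 1427 normalized counts in *cast/cast* and at 624.0, 1104 and 1333 in *b6/b6* mice, a log2 fold change of 0.16 (-0.12 to 0.45) with overlapping ranges and no mouse far from the rest. *Pdk2* was at 86.1, 137.5 and 273.8 in *cast/cast* and at 61.1, 142.5 and 478.5 in *b6/b6* mice. *B6/b6* mouse 12 was the highest and mouse 6 the second, and the log2 fold change was -0.26 (-0.81 to 0.28). *Pdk3*, the scarcest of the 34, was at 17.8, 26.9 and 51.3 in *cast/cast* and at 19.2, 35.4 and 64.5 in *b6/b6* mice, where counting error alone gives a coefficient of variation of 18 and 15.9%. The groups overlapped with a log2 fold change of -0.26 (-0.71 to 0.19). For *Pdp1* it was -0.12.

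Glycogen, the glucose store of astrocytes, is built by *Gys1* and broken down by *Pygb*. *Gys1* ranged from 64.1 to 353.1 normalized counts in *cast/cast* and from 68.9 to 294.1 in *b6/b6* mice. In *cast/cast* mice 4, 5, 6 and 8 *Gys1* was 253.9 to 353.1 and in the other 8 it was 64.1 to 163.7, with a log2 fold change of -0.06 in all mice and -0.59 without those 4. *Pygb* ranged from 862.5 to 1588 and from 492.8 to 2714, with a log2 fold change of -0.11 and its 2 highest values in *b6/b6* mice 6 and 12.

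The pentose phosphate genes held the lowest *P* of the 34 between genotypes. *Pgd* (Chr 4, 149149984 to 149166707) stood at 7.53, 40.6 and 59.9 normalized counts in *cast/cast* and at 24, 56.7 and 543.8 in *b6/b6* mice. The 2 highest, 364.4 and 543.8, were *b6/b6* mice 6 and 12, whereas the other *b6/b6* mice had at most 78.7 and *cast/cast* mouse 1 was the lowest of all. The log2 fold change was -0.80 (-1.66 to 0.06, *P* = 0.0663) in all mice and -0.26 without mice 6 and 12. EdgeR called *Pgd* at -1.47 (*P* = 0.0037). *G6pdx* was at 22.6, 39.2 and 63.5 in *cast/cast* and at 14.7, 45.1 and 170.8 in *b6/b6* mice. Again *b6/b6* mice 6 and 12 had the 2 highest values, 118.7 and 170.8, and the log2 fold change of -0.16 (-0.74 to 0.42) became 0.16 without them. *Tkt* (transketolase) was at 365.8, 728.1 and 1070 in *cast/cast* and at 500.9, 749.2 and 1678 in *b6/b6* mice. The 4 lowest *cast/cast* values were those of mice 4, 5, 6 and 8 and the highest *b6/b6* value that of mouse 12, with a log2 fold change of -0.22 (-0.62 to 0.18). For *Tkt* it ran from -0.31 to 0.25 over the alternatives and was above 0 without those 4 *cast/cast* mice.

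**Figure D2:**
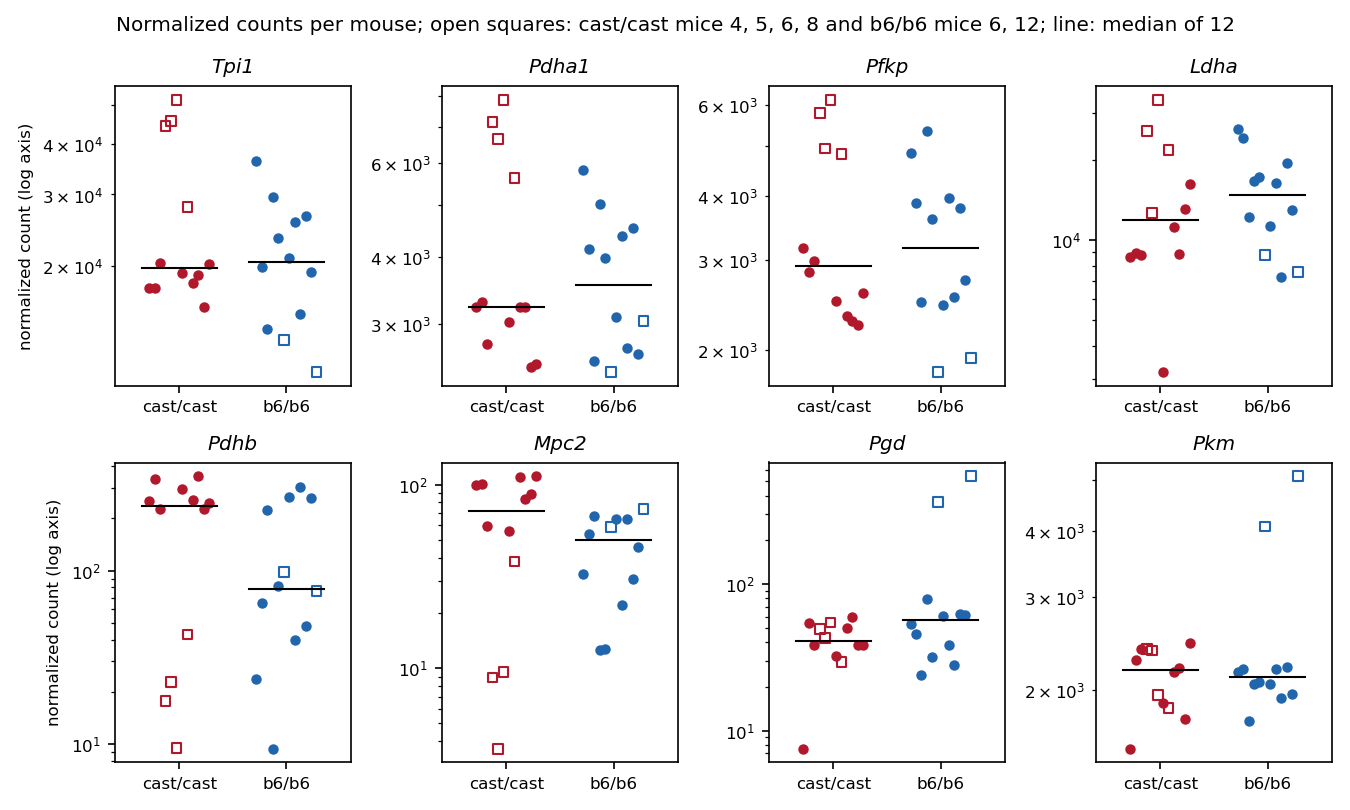
Normalized counts (log axis) of 8 genes in each mouse by genotype, with lines for the median of 12 mice and open squares for *cast/cast* mice 4, 5, 6 and 8 and *b6/b6* mice 6 and 12. Within *cast/cast*, those mice had the highest *Tpi1*, *Pdha1* and *Pfkp* and the lowest *Pdhb* and *Mpc2* values. *Pgd* and *Pkm* were highest in those *b6/b6* mice, at 364.4 and 543.8 for *Pgd*. Over all genes, 23.3% had a correlation above 0.5 with the first component and 25.4% one below -0.5.

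Since isozymes of a step can replace each other without a change of their sum, the share of each isozyme in the tag hits of its family was compared in 13 shares of 8 families. None of the 13 shares passed a two-sided permutation test of the difference of means (0 at *P* of at most 0.05, 100000 resamples). The lowest *P* was that of *Hk1*, which made up 97.8 ± 1.05% (SD, n = 12) of hexokinase tags in *cast/cast* against 97.2 ± 0.877% in *b6/b6* mice (*P* = 0.135, Benjamini-Hochberg adjusted *P* = 0.661), the remainder being *Hk2*. Phosphofructokinase tags were 49.8 ± 13.9% *Pfkm*, 30.4 ± 8.37% *Pfkp* and 19.8 ± 8.56% *Pfkl* in *cast/cast* mice. In *b6/b6* mice they were 52.2 ± 12.2%, 30.4 ± 9.27% and 17.4 ± 5.13% in the same order. *Ldha* made up 81.1 ± 11.5% of lactate dehydrogenase tags in *cast/cast* against 81.4 ± 9.52% in *b6/b6* mice. Of aldolase tags *Aldoa* held 39.1 ± 15.3% and 44.8 ± 11.5%, the remainder being the glial *Aldoc*, and it spanned 12.0 to 55.9% among *cast/cast* mice.

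Of the kinases of pyruvate dehydrogenase, *Pdk1* accounted for most tags, 83.2 ± 6.54% in *cast/cast* against 78.8 ± 10.2% in *b6/b6* mice. *Pdk2* followed with 10.7 ± 5.03% and 15.0 ± 9.31%, *Pdk4* had 3.83 ± 1.87% and 3.25 ± 1.11%, and *Pdk3* had 2.27 ± 1.04% and 2.99 ± 1.63%. *Slc2a1* made up 78.7 ± 8.35% of its pair with *Slc2a3* in *cast/cast* against 76.2 ± 8.58% in *b6/b6* mice. *Slc16a1* made up 92.9 ± 5.20% and 90.7 ± 4.48% of its pair with *Slc16a7*, and *Pfkfb2* 54.8 ± 8.66% and 56.1 ± 6.21% of its pair with *Pfkfb3*. A share rests on each gene having 1 counted tag, which was not tested.

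**Figure D3:**
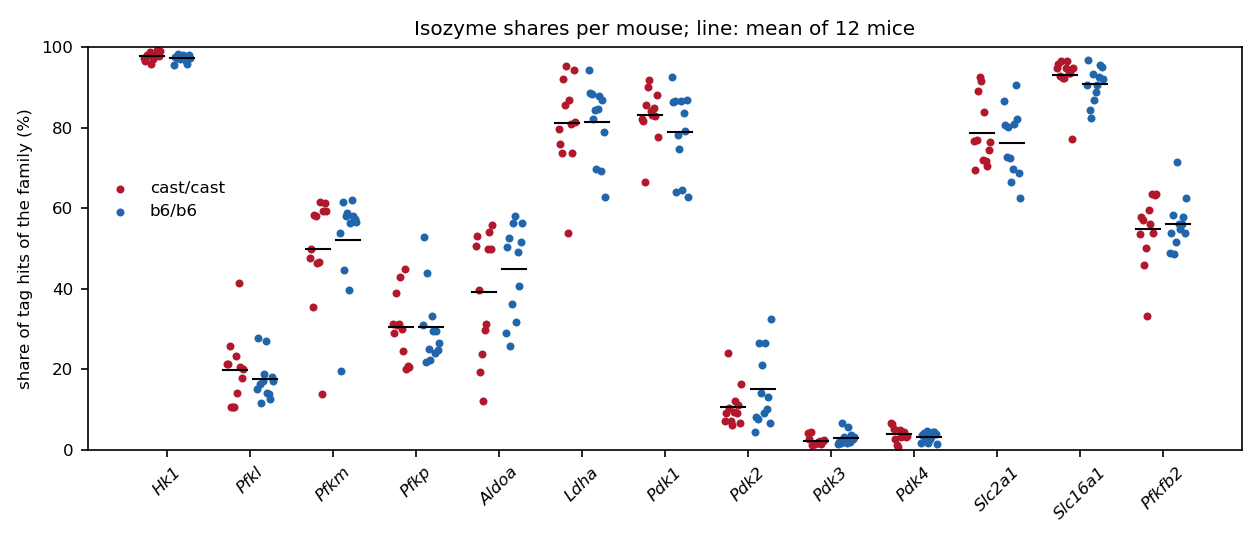
Share of each isozyme in the tag hits of its family (y axis, %), with 1 point per mouse and lines for the mean of 12 mice. The groups overlapped for each of the 13 shares, among them *Hk1* with means of 97.8 and 97.2%.

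Other genes of the same pathways were taken from a further list, of which 55 of 73 were in the table. Limma called 1 of the 55 between genotypes and had 3 at *P* of at most 0.05. Over all genes limma called 1.49% and had 8.13% at that *P*, which also stands beside its counts for the lists below. The called gene was *Glo1* (Chr 17, 30592861 to 30612659), glyoxalase 1, which clears the methylglyoxal formed by glycolysis and lies within the segment where the genotypes differ by design. *Glo1* ran from 1832 through 2570 to 3276 normalized counts in *cast/cast* and from 1012 through 1183 to 1693 in *b6/b6* mice. Each of the 12 *cast/cast* mice lay above all 12 *b6/b6* mice, with a log2 fold change of 1.06 (*P* = 2.06e-10, adjusted *P* = 8.47e-08) and 0.97 to 1.06 over the alternatives. *Mpc1* (Chr 17, 8283812 to 8297661), the partner of *Mpc2*, also lies within that segment. *Mpc1* was at 375.6, 1535 and 2892 in *cast/cast* and at 723.1, 1400 and 3370 in *b6/b6* mice, with overlapping ranges and a log2 fold change of -0.32 (*P* = 0.34). The other genes at *P* of at most 0.05 were *Hk2* (-0.59, *P* = 0.0275) and *Eno3* (0.78, *P* = 0.0377).

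Among 25 genes of the citrate cycle and of the shuttles that carry reducing equivalents into mitochondria, limma, edgeR and DESeq2 called 0, and limma had 2 at *P* of at most 0.05. These were the aspartate/glutamate carrier *Slc25a13* and the glycerol phosphate dehydrogenase *Gpd2*. *Slc25a13* was at 101.6, 122.9 and 193.0 normalized counts in *cast/cast* and at 63.1, 93.6 and 135.0 in *b6/b6* mice, a log2 fold change of 0.39 (*P* = 0.00747, ratio of means below 1.5). *Gpd2* was at 510.7, 907.3 and 1441 in *cast/cast* and at 730.2, 1228 and 2152 in *b6/b6* mice, a log2 fold change of -0.41 (*P* = 0.0185). Both pairs of ranges overlapped. The third by *P* was the aminotransferase *Got2*, at 4540, 12074 and 20270 and at 4098, 9064 and 17577 (0.44, *P* = 0.067). Without the 6 mice that stood apart, where 6.69% of all genes were called, limma called *Fh1* (1.36, *P* = 0.00176) and *Sdhd* (0.95, *P* = 0.00849).

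Of 26 regulators of glycolysis, limma called *Mlxipl* (ChREBP), a transcription factor that responds to glucose. *Mlxipl* was at 17.8, 29.2 and 59.3 normalized counts in *cast/cast* and at 6.54, 17.2 and 49.8 in *b6/b6* mice, with overlapping ranges and a log2 fold change of 0.76 (*P* = 0.00855, adjusted *P* = 0.472). Over the alternatives *Mlxipl* had 0.32 to 0.91 with adjusted *P* of 0.0146 to 0.985, and neither edgeR (*P* = 0.0262) nor DESeq2 (*P* = 0.017) called it. Of 9 immediate early genes, which mark recently active neurons, limma, edgeR and DESeq2 called 0 and each had 1 at *P* of at most 0.05. This was *Fosb*, at 48.7, 98.0 and 236.7 in *cast/cast* and at 18.5, 82.0 and 106.8 in *b6/b6* mice (0.58, *P* = 0.0418). *Junb* (16.6, 94.5 and 137.4 against 32.8, 57.8 and 112.9) and *Nr4a1* (43.0, 84.5 and 232.1 against 36.9, 67.7 and 162.9) came next. Without the 6 mice that stood apart, where 6.69% of all genes were called, limma called *Arc* (1.03, *P* = 0.00878) and *Junb* (0.84, *P* = 0.00123).

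Markers of cell types were read for the composition of the samples, and hypothalamic genes were present in every library. Summed over 10 hypothalamic markers, with *Pmch* the most abundant, normalized counts were 3779 to 29157 in *cast/cast* (median 15099) and 8203 to 28869 in *b6/b6* mice (median 13675). Limma called 0 of these 10, 0 of 7 neuronal, 0 of 7 astrocyte, 0 of 6 oligodendrocyte, 0 of 6 microglial, 0 of 5 endothelial, 0 of 4 choroid plexus and ependymal, 0 of 3 pituitary and 0 of 2 blood markers. EdgeR and DESeq2 both called *Hba-a1* and *Hba-a2* of blood, lower in *cast/cast*, and edgeR also *Mag* of oligodendrocytes (-1.59, *P* = 0.00385). By limma these went from -0.91, -0.92 and -0.92 to -0.44, -0.38 and -0.36 for *Hba-a1*, *Hba-a2* and *Mag* without *b6/b6* mice 6 and 12. With limma 2 were at *P* of at most 0.05, both microglial, *Tmem119* (-0.78, *P* = 0.0268) and *Aif1* (0.56, *P* = 0.0411). *Aif1* is on Chr 17, the chromosome with the segment where the genotypes differ by design. Of 3 thalamic markers limma called *Tcf7l2*, at 64.6, 87.6 and 276.5 in *cast/cast* and 83.0, 178.3 and 532.6 in *b6/b6* mice. Its log2 fold change was -0.84 (*P* = 0.0071, adjusted *P* = 0.449), with -1.24 to -0.72 and adjusted *P* of 0.0186 to 0.508 over the alternatives. EdgeR (-0.98, *P* = 0.00287) and DESeq2 (-0.97, *P* = 0.00136) called *Tcf7l2* as well. By limma the other thalamic markers, *Prkcd* (0.04) and *Rora* (0.05), were not called and had the other sign.

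The markers with the lowest *P* of each list are given with their lowest, median and highest values, *cast/cast* first. For hypothalamus they were *Avp* (27.3, 204.0 and 441.4 against 47.0, 231.2 and 577.5), *Nkx2-1* (36.8, 213.2 and 723.6 against 53.2, 272.4 and 610.2) and *Hcrt* (20.2, 657.2 and 4102 against 44.2, 457.4 and 2704). Neuronal ones were *Nefl* (112.4, 248.3 and 372.2 against 136.9, 251.4 and 1148), *Syt1* (3249, 11396 and 16168 against 4125, 7138 and 15162) and *Stmn2* (4299, 5940 and 7264 against 3405, 5466 and 7135). The ranges overlapped for each of these. In astrocytes they were *Gja1* (229.9, 445.5 and 585.4 against 250.2, 445.7 and 2975), *Aqp4* (284.5, 437.5 and 704.3 against 390.3, 542.8 and 650.7) and *Aldh1l1* (1405, 1653 and 3740 against 1379, 1639 and 2946), and in oligodendrocytes *Mag* (8.58, 42.7 and 63.2 against 22.1, 53.0 and 597.1) and *Cnp* (717.2, 1220 and 1921 against 799.1, 1501 and 3457). *B6/b6* mice reached the highest *Gja1* and *Mag* values. By limma the oligodendrocyte list went both ways. Below 0 on the log2 scale were, among others, *Mag* (-0.92) and *Cnp* (-0.26), and above 0 *Mbp* (0.21), *Mobp* (0.18) and *Mog* (0.28).

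Microglial markers were *Tmem119* (2.54, 13.0 and 35.6 against 8.30, 20 and 46.8), *Aif1* (363.1, 576.2 and 1570 against 156.6, 433.8 and 975.1) and *Csf1r* (121.9, 255.0 and 329.7 against 131.2, 246.0 and 413.3), and endothelial ones *Flt1* (8.89, 29.2 and 78.3 against 17.2, 32.6 and 165.3), *Kdr* (0.00, 3.78 and 17.9 against 0.787, 6.39 and 21.5) and *Cldn5* (29.1, 77.8 and 119.1 against 34.4, 72.6 and 244.7). For choroid plexus and ependyma they were *Foxj1* (138.9, 660.7 and 1524 against 95, 447.5 and 1077), *Kl* (45.4, 69.4 and 91.4 against 60.6, 77.8 and 97.0) and *Ttr* (0.910, 22.7 and 268.3 against 5.74, 16.4 and 27.1). The highest *Ttr* value was that of *cast/cast* mouse 3. Pituitary markers were *Gh* (0.00, 0.455 and 137.9 against 0.00, 1.41 and 466.6), *Pomc* (320.3, 2287 and 4527 against 520.9, 1857 and 5589) and *Cga* (0.00, 4.45 and 264.8 against 0.00, 19.6 and 73.7), and blood markers *Hba-a2* (33.2, 100.9 and 278.9 against 49.8, 204.4 and 2314) and *Hba-a1* (59.2, 125.7 and 462.9 against 66.4, 284.3 and 2615). The highest *Gh* value was that of *b6/b6* mouse 12. Whether dissections differed in neighbouring tissue was not tested.

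The sum of neuronal markers, led by *Snap25*, had medians of 41334 in *cast/cast* (29114 to 44275) and 35913 in *b6/b6* mice (26765 to 46305). That of astrocyte markers, led by *Slc1a2*, had medians of 25499 (22502 to 30754) and 25440 (17293 to 29423).

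The sum of microglial markers, led by *Cx3cr1*, had a median of 2453 among *cast/cast* (1953 to 5215) and of 2351 among *b6/b6* mice (1574 to 3817), and for endothelium, led by *Slco1a4*, 220.4 (176.5 to 382.0) and 218.1 (99.4 to 885.3). Blood markers, led by *Hba-a1*, had medians of 239.4 (92.4 to 741.8) and 488.0 (116.2 to 4929). Choroid plexus and ependyma, led by *Foxj1*, had 750.8 (262.3 to 1627) and 538.0 (195.7 to 1198), pituitary, led by *Pomc*, 2294 (459.2 to 4529) and 1885 (704.4 to 5600), and thalamus, led by *Tcf7l2*, 232.6 (164.7 to 433.2) and 290.8 (177.5 to 861.8). The part of these differences in the values of the 34 genes was not tested. Median *Gh* and *Cga* values were far lower than that of *Pomc*, so the pituitary sum mostly follows *Pomc*.

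Among mice of a genotype, the median coefficient of variation was about the same for the 34 genes as for the table. It was 36.5% in *cast/cast* against 37.9% in *b6/b6* mice, beside 36.6 and 37.5% over all genes. The median level of the 34 genes was higher, 769.3 against 150.6 normalized counts, and genes of equal level were not compared. The steadiest were *Pkm* in *cast/cast* (14.1%) and *Slc2a1* in *b6/b6* mice (13.2%), and the most variable *Pdhb* in *cast/cast* (68.0%) and *Pgd* in *b6/b6* mice (141%). Counting error accounts for 2.17% in the first of these, 3.82% in the second, 7.11% in the third and 9.27% in the last. Over deviations from the genotype means, the median pairwise Pearson correlation of the 34 genes was 0.09 beside 0.00 over all genes, from -0.93 to 0.93 in 561 pairs. A correlation above 0.5 was seen in 18% of pairs (10.9% over all genes) and one below -0.5 in 12.1% (10.6%). In the 18 mice without those that stood apart, the median was 0.07, with 14.1% of pairs above 0.5 (7.15% over all genes) and 7.49% below -0.5 (6.64%). These are descriptions over libraries that share the axes given above.

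SAGE-Seq counts depend on where the counted tag lies, so the 27-base tag that starts at the last CATG, the site of the anchoring enzyme *Nla*III, was predicted from a GENCODE vM21 transcript (GRCm38) of each gene. A tag was found for 34 of 34 genes, in the 3′ UTR for 31, across the stop codon for *Aldoa* and in coding sequence for 2, *Pdhb* and *Mpc2*. For *Pdhb* the tag starts 930 bases and for *Mpc2* 483 bases before the transcript end, against 52 for *Pdha1* and 159 for *Tpi1*. Some tags in the 3′ UTR lay about as far from the end as that of *Mpc2*, at 475 for *Tkt* and 471 for *Pdk3*. The predicted tags of *Slc2a1* (chr4:119137397-119137423) and *Dld* (chr12:31331311-31331337) lay outside the listed gene positions. These are 119108744 to 119137329 for *Slc2a1* and 31331561 to 31351437 for *Dld*. For these genes the predicted tag may therefore not be the counted one. Tags of 33 genes occurred in no other annotated gene, and that of *Pdhb* also occurred in *Gm6123*. Shown are 6 of the 8 genes plotted by mouse above, in which libraries stood apart, with CATG in capitals. They lie at chr6:124810718-124810744 (minus strand, *Tpi1*, 3′ UTR), chrX:160122234-160122260 (minus, *Pdha1*, 3′ UTR), chr14:8170233-8170259 (minus, *Pdhb*, coding), chr1:165478247-165478273 (plus, *Mpc2*, coding), chr4:149150289-149150315 (minus, *Pgd*, 3′ UTR) and chr9:59678980-59679006 (plus, *Pkm*, 3′ UTR).
Tpi1: CATGtaagggaaataaacacctgggcc
Pdha1: CATGtgctgtgaaaaggaaacgaatta
Pdhb: CATGgtatgggcactgcccaggtttaa
Mpc2: CATGgccagacctgcagagaaactcag
Pgd: CATGcgtgtgggctctgctgtcctcca
Pkm: CATGcaatagagaccagctattattca
The tags that the authors counted were not used here, and whether the position of a tag bears on its count in these libraries was not tested.

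Intake of the C/P diet was next set against expression within each genotype, as a slope in log2 units per 10 kcal. In *cast/cast* mice limma called 0 of the 34 slopes at *P* of at most 0.01, where 70 of 13998 genes (0.5%) were called, and had 1 at *P* of at most 0.05 (3% of all genes). EdgeR called 0 (0.264% of all genes). The slope with the lowest *P* was that of *Ldhb*, at -0.42 (95% interval -0.75 to -0.10, *P* = 0.0131), and its lowest value was that of mouse 11, with the second highest C/P intake of 100.1 kcal. Without *cast/cast* mice 4, 5, 6 and 8 the *Ldhb* slope was called by limma, at -0.71 (*P* = 0.00255), where 38 genes (0.271%) were called. This removal took out mouse 5, which ate the most C/P, 106.6 kcal, and had an *Ldhb* value of 2114. Mouse 11, with an *Ldhb* value of 774.8, then had the highest C/P intake, and no fit was run without it.

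In *b6/b6* mice limma called 5 of the 34 slopes, where 1569 genes (11.2%) were called. All 5 were negative, as were 906 of the 1569 over all genes. They were those of *Pgd*, *G6pdx* and *Tkt* of the pentose phosphate pathway, *Pkm* and *Pdk2*. The *Pgd* slope was -2.72 (-3.98 to -1.45, *P* = 0.000164, adjusted *P* = 0.0195), with -2.96 to -0.39 and adjusted *P* of 0.00373 to 0.885 over the alternatives. For *Pkm* (Chr 9, 59656367 to 59679375) it was -0.85 (-1.34 to -0.36, *P* = 0.00158, adjusted *P* = 0.0371), with -0.97 to -0.08 and adjusted *P* of 0.018 to 0.951 over the alternatives. The others were -0.94 for *Tkt* (*P* = 0.00752), -1.28 for *Pdk2* (*P* = 0.00758) and -1.37 for *G6pdx* (*P* = 0.00848).

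None of these 5 slopes was called without *b6/b6* mouse 12. This mouse ate the least C/P, 27.4 kcal where the next had 34.2, and had the highest value of the group for each of the 5 genes, 543.8 for *Pgd*, 170.8 for *G6pdx*, 1678 for *Tkt*, 5086 for *Pkm* and 478.5 for *Pdk2*. Without this mouse limma called 0 of the 34 slopes, where 179 genes (1.28%) were called, and had 3 at *P* of at most 0.05 (6.26% of all genes). The *Pgd* slope was then -2.03 (*P* = 0.0302) and that of *Pkm* -0.42 (*P* = 0.215). For *Tkt* it was -0.60, for *Pdk2* -0.78 and for *G6pdx* -0.61, so each kept its sign with a smaller size. Without mice 6 and 12 limma again called 0 of the 34, where 170 genes (1.21%) were called, and had 1 at *P* of at most 0.05 (6.4%).

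The difference between the slopes of the genotypes was called for 3 of the 34, where 1390 genes (9.93%) were called. *Pgd* and *Pkm*, with slopes of 0.04 and -0.02 in *cast/cast* mice, differed by 2.75 (*P* = 0.000364) and 0.83 (*P* = 0.00395), *cast/cast* minus *b6/b6*. *Slc16a1* (Chr 3, 104638667 to 104658462) had a slope of -0.44 (*P* = 0.0704) in *cast/cast* and 1.23 (*P* = 0.0299) in *b6/b6* mice, a difference of -1.66 (*P* = 0.00837). In *b6/b6* mice its 4 lowest values, 262.1 to 270.8, belonged to 3 mice at 34.9 kcal or less and to mouse 3 at 40.7 kcal. None of the 3 differences was called without *b6/b6* mouse 12 (limma 0 of 34, with 3 at *P* of at most 0.05, edgeR not run for this contrast), where 213 genes (1.52%) were called and 6.98% were at *P* of at most 0.05. The estimates were then 2.07 for *Pgd*, 0.40 for *Pkm* and -1.60 for *Slc16a1*, the last nearly as large as with the mouse. With libraries rescaled to the same total, all called differences of the 34 genes were positive, so the negative one of *Slc16a1* was not called. Fewer differences were called with study number as a covariate.

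**Figure D4:**
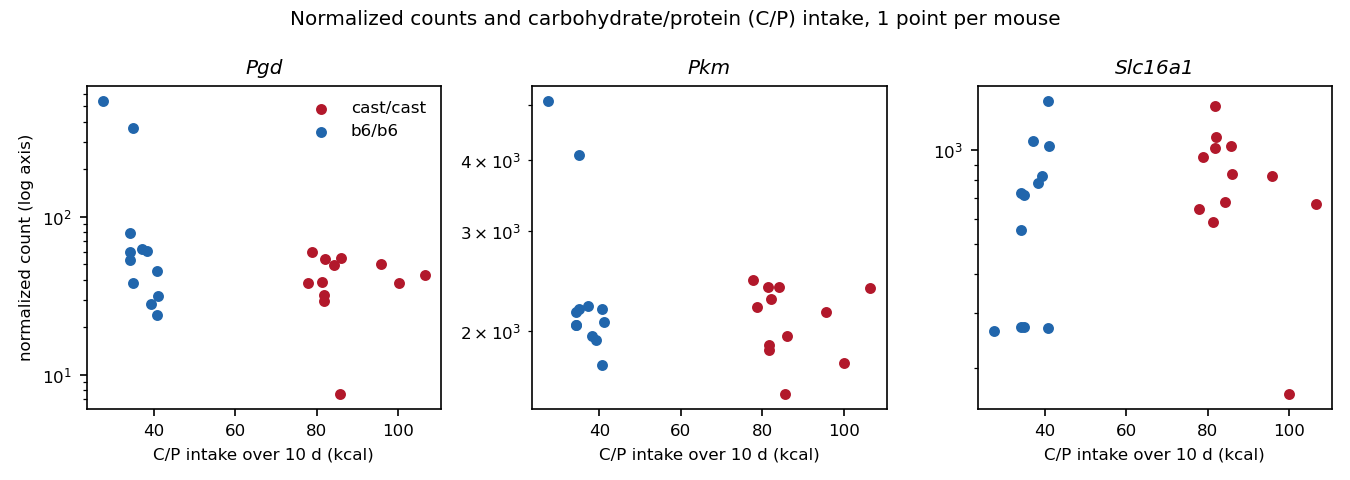
Normalized counts (log axis) of *Pgd*, *Pkm* and *Slc16a1* against C/P intake over 10 d (x axis, kcal), with 1 point per mouse and colours for genotype. The *b6/b6* mouse at 27.4 kcal had the highest *Pgd* and *Pkm* values of all, 543.8 and 5086.

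Total intake over 10 d ranged from 104.0 to 133.1 kcal in *cast/cast* and from 94.8 to 120.2 kcal in *b6/b6* mice. In *cast/cast* mice limma called 4 of the 34 slopes on total intake, where 1428 genes (10.2%) were called. *Mpc2* (Chr 1, 165461207 to 165481214) was higher in mice that ate more, by 1.43 log2 units per 10 kcal (0.80 to 2.06, *P* = 8.51e-05, adjusted *P* = 0.0427, with 0.41 to 1.47 and adjusted *P* of 0.0316 to 0.997 over the alternatives). So were *Tkt* (0.44, *P* = 0.00421) and *Aldoa* (0.62, *P* = 0.00456), whereas *Gpi1* was lower (-0.55, *P* = 0.002).

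The 2 mice with the lowest total intake, *cast/cast* mice 4 and 5 at 104.0 and 107.2 kcal, were among those that stood apart, and mice 6 and 8 were at 119.0 and 121.3 kcal. Without these 4, limma called 0 of the 34 slopes, where 227 genes (1.62%) were called, and had 1 at *P* of at most 0.05 (6.14% of all genes). The *Mpc2* slope was then 0.41, *Tkt* 0.21, *Aldoa* 0.79 and *Gpi1* -0.10. In *b6/b6* mice limma called 0 slopes on total intake, where 62 genes (0.443%) were called, and had 1 at *P* of at most 0.05 (3.90%), *Pfkl* at 0.22 (*P* = 0.0417). EdgeR called 1, *Pgd*, at -1.22 (*P* = 0.00784), where 150 genes (1.07%) were called, 125 of them negative.

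Study numbers, which like colony numbers may follow the order in which mice were tested, had medians of 120.5 in *cast/cast* against 269.5 in *b6/b6* mice. With genotype in the fit, limma called 0 of the 34 slopes on study number, where 878 genes (6.27%) were called, and had 7 at *P* of at most 0.05, where 21.2% of all genes were. EdgeR called 3, *Dld*, *G6pdx* and *Pgd*, all negative, where 1219 genes (8.71%) were called, 1040 of them negative. Those 3 genes were high in *b6/b6* mice 6 and 12, whose study numbers were 42 and 27. Without *cast/cast* mice 4, 5, 6 and 8 limma called 11, where 2933 genes (21.0%) were called, 6 positive (*Eno2*, *Gys1*, *Ldha*, *Pdha1*, *Pfkp* and *Tpi1*) and 5 negative (*Dld*, *G6pdx*, *Mpc2*, *Pdhb* and *Tkt*). Without all 6 mice that stood apart it called 5, where 1397 genes (9.98%) were called, *Dlat*, *Eno2*, *Gys1* and *Pfkp* positive and *Pdhb* negative at -0.88 per 100 study numbers. The *b6/b6* mice with study numbers of 288 or more, 1, 2, 4, 5, 8 and 10, were those with high scores on the first component, so that in *b6/b6* mice this axis and study number cannot be told apart. In *cast/cast* the mice with high scores lay at both ends, mice 4 and 6 at study numbers 15 and 72 and mice 5 and 8 at 258 and 270.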

How the data were processed

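The hypothalamus of 24 F_2_ mice was profiled by SAGE-Seq, 1 library per mouse. According to the study's methods and the submitters' processing notes, the vendor's SAGE software, modified, placed tags on GRCm38 (mm10), and DESeq was used. The signal values deposited by the authors are tag hits per gene divided by the DESeq size factor. Divided by the step of their library, 100% of values were whole within 0.1 tag hit, which gave back the tag hits. The table has 19529 lines for 13998 genes, repeated lines of a gene holding the same values, and the lowest mean is 6.03. The p-value columns deposited by the authors hold the DESeq P and its adjusted form, the ratio column deposited by the authors holds their fold change, and the log2 column deposited by the authors holds its log2. These were not used. No 2 libraries were alike within sampling noise (276 pairs, lowest chi-square per degree of freedom 14.72).

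Limma 3.58.1 (eBayes with trend, R 4.3.3) was run for genes averaging 5 or more, on log2(normalized count + 1) over 24 mice. A genotype call needed P up to 0.01, unadjusted, plus a 1.5-fold difference, and a slope call P up to 0.01, with Benjamini-Hochberg adjustment over all genes. C/P and total intake were centred within genotype with 1 slope per genotype. Shares of isozymes were compared by permutation with 100000 resamples. The alternatives were edgeR 4.0.16 and DESeq2 1.42.0 on the tag hits, equal library totals, pseudocounts of 0.5 and 5, only genes averaging 20 or more, study number as a covariate, C/P as a percent of total intake, a separate fit in each genotype, shares by medians or log2 ratios, and those added later. Scripts ran in Python 3.11.15 (scipy 1.17.1, matplotlib 3.10.9, pandas 2.3.3, numpy 2.4.6). The fits were run on counts simulated with the same dispersion for all genes and no axis shared among libraries. That run therefore does not cover libraries that stand apart.

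All members are named. Lowest, median and highest values are given for those called by limma in all mice, those with the lowest P and a fixed set of rate-limiting steps and isozymes, and from other lists for *Mpc1*, *Glo1*, genes called between genotypes and otherwise the lowest 3 P. For 1 list a gene among these, and the sum of that list, are not reported here. The members, lists and rules were chosen with earlier results of these data known. Counts carry no molecular identifiers, so counting error is a lower limit of the technical error.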

Additional observations from a re-analysis of the deposited data

Results flagged for a closer look

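The slope of expression on C/P intake differed between the genotypes by a test of the difference itself for 3 of the 34 genes, beside 1390 of 13998 genes (9.93%). The count was thus no more than the share over all genes. The slope was 2.75 log2 units per 10 kcal higher in *cast/cast* than in *b6/b6* mice for *Pgd*, 0.83 higher for *Pkm*, and for *Slc16a1* the difference was -1.66. By limma the adjusted *P* was 0.0329 for *Pgd*, 0.0685 for *Pkm* and 0.0943 for *Slc16a1*. In libraries rescaled to the same total the difference of *Slc16a1* was not called. Without *b6/b6* mouse 12, the mouse with the lowest C/P intake, the differences were 2.07 for *Pgd* (*P* = 0.0342), 0.40 for *Pkm* (*P* = 0.257) and -1.60 for *Slc16a1* (*P* = 0.0615). The genotypes did not overlap in C/P intake, so a slope that bends with intake and a difference between genotypes cannot be told apart.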

How the results depend on the processing

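Of 611 alternatives over 65 results, 449 kept direction and side of the threshold. Leaving out mice and the 2 principal components as covariates were chosen after seeing the data. The components come from deviations from genotype means, so that with them genotype fold changes stay as they are by construction and only their error changes. Removing the 4 *cast/cast* mice left the *b6/b6* mice with high first scores in. Shares over all genes are in parentheses. Genotype calls among the 34 genes, 0 in all mice (1.49%), were 1 with edgeR (2.79%), 2 without *cast/cast* mice 4, 5, 6 and 8 (5.85%), 3 without these and *b6/b6* mice 6 and 12 (6.69%), and 2 with the components (4.96%). Counts at *P* of at most 0.05 were 2 with edgeR (11.6%), 1 with DESeq2 (12.1%), 2 with study number (14.8%), and 6 (20.9%), 12 (25.5%) and 6 (25.7%) in the last 3 settings. Slopes on C/P in *cast/cast* went from 0 (0.5%) to 1 without the 4 mice (0.271%), without the 6 (0.414%), with the components (1.28%) and with C/P as a percent (2.94%). In *b6/b6* they went from 5 (11.2%) to 2 with study number (7.22%), 0 without mice 6 and 12 (1.21%), 0 without mouse 12 (1.28%), 1 without the 6 (3.31%), 1 with the components (1.79%), 1 with C/P as a percent (4.08%) and 3 in separate fits (9.28%). EdgeR gave 6 (12.7%). The difference went from 3 (9.93%) to 1 with study number (6.84%), 1 with the components (1.44%) and 0 without mouse 12 (1.52%), without mice 6 and 12 (1.46%) or without the 6 (3.04%). With libraries rescaled it was 4 (10.3%), all positive, where 2 were positive before. Total intake in *cast/cast* went from 4 (10.2%) to 0 without the 4 mice (1.62%), 1 without the 6 (2.54%) and 1 with the components (3.74%), and in *b6/b6* from 0 (0.443%) to 1 with edgeR (1.07%). Study number went from 0 (6.27%) to 3 with edgeR (8.71%), 11 without the 4 (21.0%) and 5 without the 6 (9.98%), and stayed at 0 without *b6/b6* mice 6 and 12 (0.4%) and with the components (0.679%). Among all genes, genotype calls went from 208 to 395 with DESeq2, 391 with edgeR and 695 with the components.

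Genotype log2 fold changes of other sign were seen without the 4 mice and without the 6, respectively, for *Aldoa* (0.04, 0.26), *Eno2* (-0.25, -0.35), *G6pdx* (0.06, 0.37), *Gpi1* (-0.26, -0.27), *Pdha1* (-0.26, -0.34), *Pfkp* (-0.26, -0.40), *Slc2a3* (0.37, 0.59), *Tkt* (0.10, 0.25) and *Tpi1* (-0.12, -0.27), and without the 6 for *Dld* (0.44), *Pdk2* (0.04) and *Pkm* (0.01). Without *b6/b6* mice 6 and 12 they were 0.13 for *Dld*, -0.03 for *Eno2*, 0.16 for *G6pdx*, -0.05 for *Pfkp*, 0.02 for *Pkm*, 0.08 for *Pygb* and 0.01 for *Slc2a3*. *Pfkfb3* was 0.01 with DESeq2 and with study number, *Pfkm* 0.11 with edgeR, 0.12 with DESeq2 and 0.07 with study number, *Gys1* 0.05, 0.06 and 0.07 in these 3, *Slc16a7* 0.02 with study number, *Eno2* -0.02 in rescaled libraries, and *Slc2a1* -0.05 in these and -0.02 with study number. Share differences changed sign without the 6 mice for *Pfkp* (-2.12), *Aldoa* (5.29), *Slc2a1* (-4.97) and *Pfkfb2* (5.04), for *Pfkfb2* by medians (1.16) and for *Ldha* as a log2 ratio (0.0626). The cause was not tested. Rescaling libraries gave 43 genotype calls higher and 187 lower over all genes, and moved the all-gene median of the *b6/b6* slope on C/P from -0.02 to -0.15 and that of the 34 genes from -0.34 to -0.46. At the depth of these libraries, counting error was largest in *Pdk3*, 18 and 15.9% of the mean. No paired analysis was possible because replicate numbers were given in accession order and pair no mice.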
